A study of Bos grunniens and Bos grunniens x Bos taurus with 6 samples.

Results

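Kinesins are motor proteins that walk along microtubules or take them apart, and their genes were described in single cells of yak testis. The set holds every symbol of the files that begins with KIF and a digit and has at least 5 unique molecular identifiers (UMIs, each counting 1 captured RNA molecule) over all libraries. That was so for 31 of 31 such symbols, among 26961 features, of which 19901 had at least 5 UMIs. Totals over the libraries ran from 125 UMIs for KIF7 to 11240 for KIF5B. A reference table of RefSeq names 38 kinesin symbols of this pattern, and KIF12, KIF13B, KIF16B, KIF20B, KIF25, KIF2A and KIF3C were not analysed here. By their known roles, 11 members work in mitosis and meiosis, 9 at cilia and flagella, and 11 in transport of cargo or in signalling.

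Droplet RNA libraries (10x Genomics) were made from whole testis of domestic yak (Bos grunniens) and of 1 cattle-yak, a yak hybrid with cattle (Bos taurus), known for sterile males. Replicates 1 and 2 are from yak aged 6 months, before puberty, replicates 3 and 4 from yak aged 18 months, in adolescence, and replicate 5 from a yak aged 4 years, after sexual maturity. The cattle-yak library, also after sexual maturity, is the only one of its kind. Every sample was frozen tissue that was thawed, digested with collagenase IV, hyaluronidase and trypsin, filtered and held in culture medium before loading. Separate animals behind same-age libraries are not stated in the labels, so the p-values below rest only on variation among sums of these libraries, which may be technical. The tests also share this spread across genes and over all the sums of a fit.

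Dividing cells use kinesins to push spindle poles apart, to move chromosomes and to part the daughter cells. Cilia and the sperm flagellum are built with kinesins that carry their parts outward along the axoneme. The testis needs all of these tasks at once, because spermatogonia divide by mitosis, spermatocytes pass through meiosis, and spermatids grow a flagellum.

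The libraries held 5104 to 8946 barcodes and 9575446 to 24762829 UMIs, and 29240 cells were kept, with medians between 1467 and 2074 UMIs for a cell. The limit on mitochondrial UMIs took out 38.0% of replicate 3, 20.3% of replicate 4 and between 2.30% and 17.9% of the rest. Cells were assigned to a type by the raw UMIs of marker genes, none of them a kinesin, and 42.2% to 58.8% of the cells of a library passed such a gate. Spermatogonia numbered 31, 21, 363, 275 and 166 in replicates 1 to 5 of the yak, and 34 in the hybrid. Spermatocytes numbered 369 at 4 years, 30 in the cattle-yak and at most 4 elsewhere, and the 477 spermatids were all from 4 years. MAEL, a germ cell gene that no gate used, lay between 242.5 and 405 CPM in gated spermatogonia, where CPM is the UMI count scaled to a common total of 1e+06. HMGB4, a spermatid gene that no gate used, reached 2789 CPM in gated spermatids. One check went against its gate. WT1, a known Sertoli cell gene, had 15.7 to 34.4 CPM in cells gated as Sertoli, but 64.8 to 212 CPM in gated spermatogonia and 120 to 212 CPM in gated endothelium, so "Sertoli" below means the marker gate alone. DDX4, DAZL, PRM1 and AMH carry no symbol in the files and were not used here.

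Across the germ cell stages of the 4 year library, 13 of the 31 kinesins had their highest level in spermatogonia, 5 in spermatocytes, 11 in spermatids and 2 in somatic cells. Spermatocytes are taken as a whole in these counts. A member may stand higher in early spermatocytes alone, as KIF4A, KIF5B, KIF20A and KIF24 did. A level is the CPM of the UMIs summed over the cells of a gate. These stages come from 1 library, so no test was made, and the intervals below are exact 95% Poisson intervals that cover counting error only. The summed level of all 31 genes was 1567 CPM in spermatogonia, 1589 CPM in spermatocytes, 3686 CPM in spermatids and 525 CPM in somatic cells.

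Kinesins of cell division were spread over all 3 germ cell stages. In spermatogonia, KIF14, which acts when daughter cells part, stood at 34.3 CPM (24.9 to 46.1), which was 8.01 times the mean of spermatocytes, spermatids and somatic cells. The chromosome-bound motor KIF4A was at 27.3 CPM (19.02 to 38.0) there, or 6.79 times that mean. KIF11, which pushes the spindle poles apart, was at 90.5 CPM (74.8 to 109), or 5.08 times. Among spermatogonia, spermatocytes as a whole, spermatids and somatic cells, all 3 were highest in spermatogonia. KIF22, a motor on chromosome arms, had 155 CPM in spermatogonia (134 to 178; 4.15 times), and KIF20A, a motor of the central spindle, had 10.9 CPM (5.97 to 18.3; 3.90 times). In early spermatocytes alone, KIF4A and KIF20A stood above these levels of spermatogonia. In spermatocytes, KIF23, a part of the central spindle and of the bridges that join germ cells, reached 154 CPM (142 to 168), which was 3.00 times the mean of the other 3 gates. KIF18A, which keeps chromosomes aligned at the spindle equator, reached 59.3 CPM in spermatocytes (51.6 to 67.8; 2.89 times). These 2 were the division kinesins with their highest level in spermatocytes taken as a whole.

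KIF2B and KIF2C, which take microtubules apart from their ends, were highest in spermatids. KIF2B reached 67.1 CPM in spermatids (56.4 to 79.2), which was 16 times the mean of the other 3 gates. KIF2C, the mitotic centromere-associated kinesin, reached 185 CPM in spermatids (167 to 204; 4.21 times). KIF15, a partner of KIF11 in keeping the spindle bipolar, had 192 CPM in spermatogonia (169 to 217.5), 62.7 CPM in spermatocytes and 211 CPM in spermatids (192 to 232). Its intervals in spermatogonia and spermatids overlapped, with a lower level between them.

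Among the ciliary kinesins, levels climbed along meiosis for KIF17 and KIF9. KIF17, a kinesin-2 motor known in mouse spermatids for carrying a transcriptional coactivator, had 63.8 CPM in early spermatocytes, 222 CPM in late spermatocytes and 538 CPM in spermatids (507 to 570), beside 47.6 CPM in somatic cells. KIF9, which mouse sperm need for flagellar movement, had 7.50 CPM in early spermatocytes, 40.7 CPM in late spermatocytes and 56.0 CPM in spermatids (46.3 to 67.1). KIF27, a relative of the hedgehog regulator KIF7, had 77.5 CPM in early spermatocytes, 109 CPM in late spermatocytes and 273 CPM in spermatids. The heterotrimeric kinesin-2 subunits that drive intraflagellar transport had another order. KIF3B had 46.3 CPM in early spermatocytes, 112 CPM in late spermatocytes, its highest level, and 50.2 CPM in spermatids. KIF3A had 204 CPM in early spermatocytes, 183 CPM in late spermatocytes and 127 CPM in spermatids. KIF24, which acts at centrioles, had its highest level, 51.3 CPM, in early spermatocytes and 6.27 CPM in spermatids.

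The conventional kinesin heavy chains, which carry vesicles and organelles, traded places between stages. KIF5C (ENSBGRG00000005336) reached 1891 CPM in spermatids (1833 to 1952, from 3919 UMIs), which was 27.5 times the mean of the other 3 gates. It had 70.0 CPM in early and 85.9 CPM in late spermatocytes, levels like the 83.0 CPM in somatic cells of this library, so no expression in spermatocytes is read from them. KIF5B (ENSBGRG00000023175) ran the other way, with 632 CPM in early spermatocytes, 234 CPM in late spermatocytes and 84.0 CPM in spermatids. KIF21B, known for its part at the immune synapse of T cells, reached 28.0 CPM in spermatids (21.3 to 36.2), or 11.1 times the mean of the other 3 gates. KIF1A, which carries synaptic vesicle precursors in neurons, was highest in spermatogonia at 15.6 CPM (9.53 to 24.1; 5.81 times). KIF13A, an endosome motor, was highest in somatic cells, at 9.17 CPM (5.68 to 14.0; 2.71 times), as was KIF26A, a signalling member, with 9 UMIs. KIF1C, a motor of Golgi vesicles, had 53.1 CPM in spermatogonia, 4.48 CPM in spermatocytes, 1.93 CPM in spermatids and 41.9 CPM in somatic cells.

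**Figure D1:**
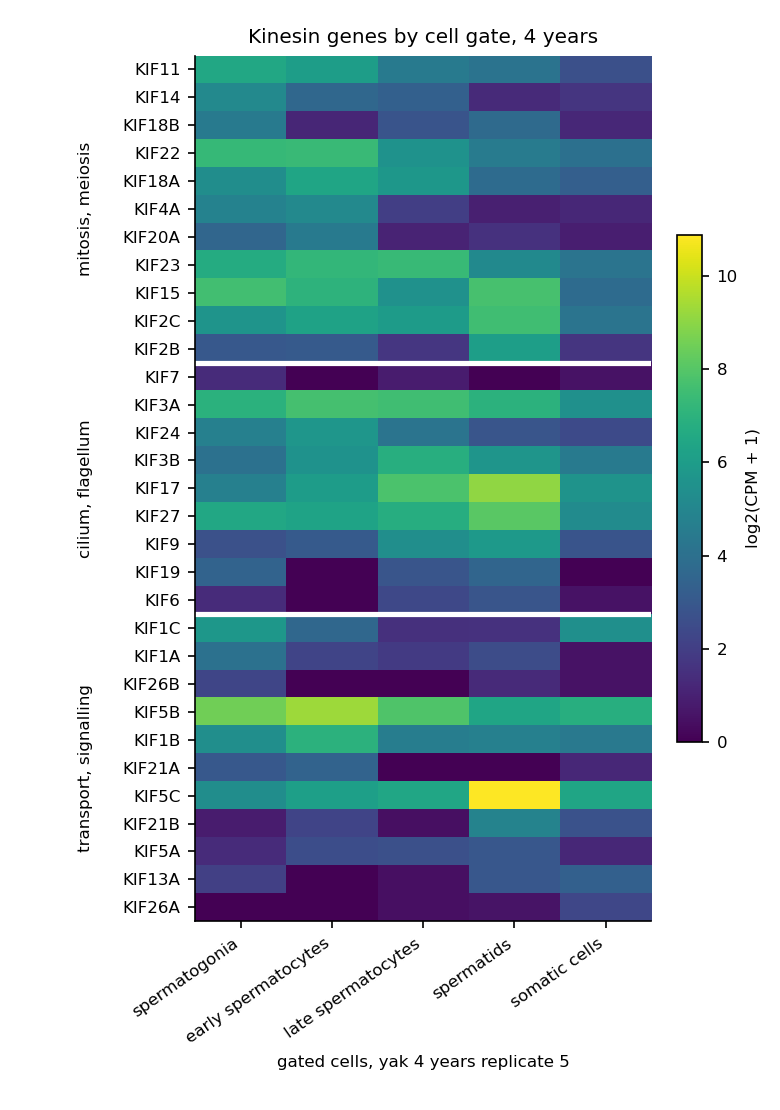
Level of the 31 kinesin genes in gated cells of the 4 year library, as log2(CPM + 1) in colour, with genes in rows grouped by role and gates in columns. KIF5C, KIF17, KIF2B and KIF21B are brightest in spermatids, while KIF14, KIF11 and KIF1A are brightest in spermatogonia.

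Between neighbouring stages of this library, a ratio was formed for members with at least 10 UMIs over both gates, and it was called past 2-fold only as a description. Spermatids over spermatocytes gave 27 such members, 10 at least 2-fold higher and 9 at least 2-fold lower, where 29.4% and 34.7% of all genes were. The counting interval of the ratio lay above 1 for 11 of the 27 and below 1 for 11, and the share of all genes by interval was not counted. KIF5C was 22.7 times as high in spermatids as in spermatocytes (20.2 to 25.6) and KIF2B 20.0 times (11.1 to 39.6), while KIF5B was at 0.262 (0.222 to 0.307) and KIF23 at 0.228 (0.176 to 0.292). Late over early spermatocytes gave 25 members, 6 at least 2-fold higher and 10 at least 2-fold lower, where 21.9% and 35.6% of all genes were. KIF9 stood at 5.42 (2.41 to 15.1) and KIF17 at 3.47 (2.61 to 4.72) in late over early spermatocytes. KIF20A stood at 0.0532 (0.00998 to 0.184), KIF4A at 0.0892 (0.0350 to 0.202) and KIF1B, a mitochondrial and vesicle motor, at 0.188 (0.135 to 0.260). Spermatids over late spermatocytes gave 25 members, 9 at least 2-fold higher and 8 at least 2-fold lower, where 34.4% and 29.1% of all genes were.

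Later stages were also set against spermatogonia of the same library. Early spermatocytes gave 24 members, 4 at least 2-fold higher and 5 at least 2-fold lower, where 20.1% and 28.5% of all genes were. Spermatocytes gave 26 members, 6 at least 2-fold higher and 11 at least 2-fold lower, where 23.7% and 40.2% of all genes were. Spermatids gave 27 members, 11 at least 2-fold higher and 11 at least 2-fold lower, where 33.2% and 44.0% of all genes were. Against somatic cells, spermatids gave 25 members, 17 at least 2-fold higher and 2 at least 2-fold lower, where 37.2% and 39.3% of all genes were.

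Free RNA in droplets is known to give UMIs in cells that do not express a gene. In gated somatic cells of the 4 year library, the spermatid genes HMGB4, TNP1, ODF1 and CRISP2 stood at 3.87%, 5.64%, 5.57% and 7.85% of their level in spermatids. KIF5C stood at 4.39% of its spermatid level there (3.77 to 5.08), KIF2B at 3.25%, KIF15 at 6.21%, KIF17 at 8.85% and KIF2C at 9.21%. The share of KIF17 had a counting interval of 7.20% to 10.8%. The part of free RNA, doublets or other cells in these somatic levels, 83.0 CPM for KIF5C and 47.6 CPM for KIF17, was not tested, and no somatic expression is read from them. Gated somatic cells of the other 5 libraries, which had no gated spermatids, had 1.96 to 7.06 CPM of KIF5C and 0.408 to 2.09 CPM of KIF17.

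Spermatogonia, the dividing stem and progenitor cells of the germ line, had higher kinesin levels than somatic cells in every library. The summed level of the 31 genes was 796 to 1567 CPM in gated spermatogonia against 171 to 525 CPM in gated somatic cells. Levels were compared by edgeR's quasi-likelihood test on UMIs summed per library and cell class, as spermatogonia minus the mean of the somatic classes with the library as a block. Of 24 kinesins tested, 18 were higher in spermatogonia at an adjusted p below 0.05 and 0 were lower, where 36.7% and 20.6% of all genes tested were, 57.3% in all. The other 7 members had too few UMIs. By role, 10 of 10 tested kinesins of division, 5 of 7 of cilia and 3 of 7 of transport were higher. The filter on low counts keeps a gene that is high in a few sums. Members near 0 in somatic cells could thus enter through spermatogonia alone, and these counts depend in part on that. The median log2 fold change was 2.62 over the 24 kinesins and 0.31 over all genes.

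Division kinesins were higher in spermatogonia by 2.23 (KIF22) to 4.43 (KIF18B) on the log2 scale. KIF14 (ENSBGRG00000018354) had 24.7, 31.1 and 57.5 CPM in spermatogonia (lowest, median and highest of 6 libraries) against 0.272, 0.762 and 2.18 CPM in somatic cells. It was higher by 4.19 ± 0.36 (log2, SE; edgeR, adjusted p = 3.32e-13). The ranges did not overlap, and the spermatogonia of every library lay above its somatic cells. Overlap was checked for kinesins alone, here and in the comparisons below, so its share over all genes is not known. KIF15 had 34.6, 109 and 192 CPM in spermatogonia against 1.31, 3.37 and 13.1 CPM in somatic cells, a rise of 3.74 ± 0.35 (edgeR, adjusted p = 2.32e-12). KIF22 had 77.6, 117 and 155 CPM in spermatogonia against 11.99, 16.1 and 26.5 CPM in somatic cells (log2 fold change 2.23 ± 0.26; edgeR, adjusted p = 6.58e-10). KIF11 had 19.4, 35.3 and 90.5 CPM in spermatogonia against 0.681, 2.01 and 7.10 CPM in somatic cells (4.13 ± 0.50; edgeR, adjusted p = 2.57e-09). For these 3 genes, too, the groups did not overlap. The same held for KIF18A (2.70 ± 0.32), KIF23 (2.54 ± 0.37) and KIF18B, which shortens astral microtubules (4.43 ± 0.55), with edgeR adjusted p-values of 1.58e-09, 1.64e-07 and 5.7e-09. KIF2C rose by 3.25 ± 0.43 (edgeR, adjusted p = 1.97e-08) and was higher in 6 of 6 libraries. Its groups overlapped, since the somatic cells of the 4 year library had 17.03 CPM and the lowest spermatogonia 14.8 CPM. KIF4A and KIF20A were also called, the second no longer without replicate 3 or with the stricter cell filter.

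Some of these cells were in the cell cycle. A cycling gate, which asks for a UMI of at least 2 of 8 cell cycle genes and thus depends on depth, was passed by 13 of 31, 7 of 21, 234 of 363, 120 of 275 and 89 of 166 spermatogonia in replicates 1 to 5 of the yak, and by 17 of 34 in the hybrid. Of gated somatic cells, 29 of 3088, 50 of 2408, 25 of 1526, 5 of 1583 and 18 of 1084 passed it in the same replicates, and 16 of 2078 in the hybrid. The part of these cells in the difference between spermatogonia and somatic cells was not tested.

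Ciliary and transport kinesins gave fewer calls. KIF19, which keeps cilia short in mouse by taking microtubules apart, had 10.1, 24.9 and 97.0 CPM in spermatogonia against 0, 1.59 and 2.72 CPM in somatic cells (4.46 ± 0.55; edgeR, adjusted p = 4.44e-09). KIF1A had 13.4, 17.1 and 44.5 CPM in spermatogonia against 0, 0.162 and 0.437 CPM in somatic cells (6.08 ± 0.58; edgeR, adjusted p = 9.57e-11). Neither overlapped between the groups, and both were higher in spermatogonia in 6 of 6 libraries. KIF1A was no longer called with the stricter cell filter or the stricter gate. KIF17 rose by 3.08 ± 0.51 (edgeR, adjusted p = 1.51e-06) and was higher in spermatogonia in 5 of 6 libraries. At 4 years it had 25.8 CPM in spermatogonia and 47.6 CPM in somatic cells. KIF24 rose by 3.46 ± 0.59 (edgeR, adjusted p = 2.68e-06), also in 5 of 6 libraries, with 0 CPM in the spermatogonia of replicate 1. KIF3A, KIF27, KIF5B and KIF5C were called as well. KIF1C, KIF3B, KIF9, KIF1B, KIF21A and KIF13A were not called. Where somatic cells were taken as 1 sum per library, KIF13A and KIF21A were called lower in spermatogonia, and KIF3A, KIF5B and KIF5C were no longer called. With the library left out of the model, KIF17 and KIF5C were not called, and without replicate 3 KIF5C was not.

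**Figure D2:**
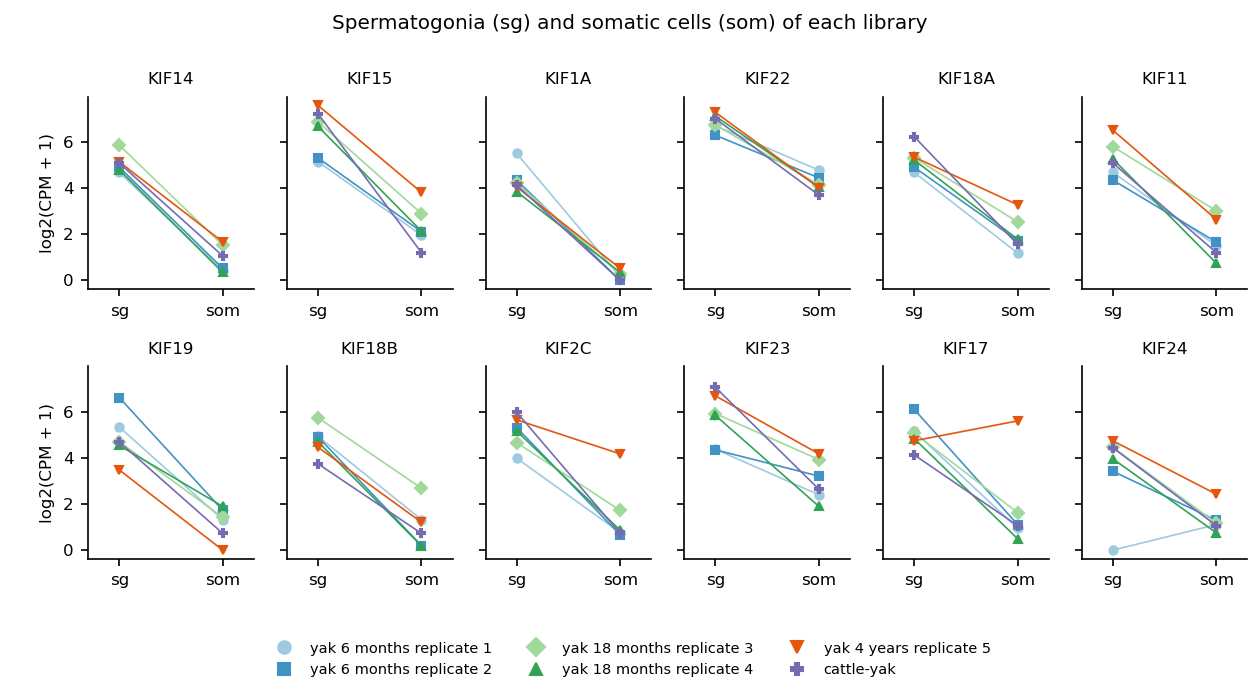
Level of 12 kinesins in gated spermatogonia (left) and gated somatic cells (right) of each library, as log2(CPM + 1), with 1 line per library. Lines fall to the right in all 6 libraries for KIF14, KIF15, KIF1A, KIF22, KIF18A, KIF11, KIF19, KIF18B, KIF2C and KIF23, and in 5 of 6 for KIF17 and KIF24.

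Spermatocytes could be set against spermatogonia in the cattle-yak and at 4 years, the only libraries with at least 20 cells of both. The error came from the shared fit over all cell classes and libraries. The p-values therefore do not measure how far these 2 libraries differ. Of 24 kinesins tested, 7 were higher in spermatocytes and 1 was lower, where 18.3% and 19.9% of all genes were, 38.2% in all. The makeup of the gate differed: 28 of the 30 cattle-yak spermatocytes passed the early and 0 the late sub-gate, against 154 and 176 of the 369 at 4 years. The part of this makeup in the results was not tested.

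Only 3 of the 7 kinesins called higher were higher in both libraries. KIF23 had 464 CPM in spermatocytes and 132 CPM in spermatogonia of the cattle-yak, and 154 CPM in spermatocytes and 102 CPM in spermatogonia at 4 years (2.02 ± 0.54; edgeR, adjusted p = 0.00295). KIF3A had 271 and 157 CPM in cattle-yak spermatocytes and spermatogonia, and 189.7 and 123 CPM in those of 4 years (1.32 ± 0.35; edgeR, adjusted p = 0.00258). KIF1B had 110.3 and 20.7 CPM in cattle-yak spermatocytes and spermatogonia, and 46.7 and 40.6 CPM in those of 4 years (1.41 ± 0.40; edgeR, adjusted p = 0.00466). For these 3 genes, spermatocytes lay above spermatogonia within each library, although for KIF1B at 4 years the counting interval of the ratio, 0.839 to 1.60, included 1. KIF1C was the member called lower, with 18.4 and 33.1 CPM in cattle-yak spermatocytes and spermatogonia, and 4.48 and 53.1 CPM in those of 4 years (-2.55 ± 0.50; edgeR, adjusted p = 9.33e-05). It was lower in both libraries, with a ratio of 0.0843 (0.0457 to 0.147) at 4 years and, from 4 and 8 UMIs, of 0.556 (0.122 to 2.07) in the cattle-yak.

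The other 4 kinesins called were higher in spermatocytes in 1 of the 2 libraries. KIF5B was called higher in spermatocytes (1.34 ± 0.32; edgeR, adjusted p = 0.000953), with 799.7 CPM in spermatocytes and 248 CPM in spermatogonia of the cattle-yak, but 321 CPM in spermatocytes and 372 CPM in spermatogonia at 4 years. KIF21A, known for slowing microtubule growth at the cell edge, had 50.6 CPM in spermatocytes and 0 UMIs in spermatogonia of the cattle-yak, but 2.24 and 7.02 CPM in those of 4 years (1.85 ± 0.71; edgeR, adjusted p = 0.037). KIF3B had 4.6 and 33.1 CPM in cattle-yak spermatocytes and spermatogonia, and 96.8 and 15.6 CPM in those of 4 years (1.48 ± 0.60; edgeR, adjusted p = 0.0453). KIF9 had 9.19 and 12.4 CPM in cattle-yak spermatocytes and spermatogonia, and 32.7 and 5.46 CPM in those of 4 years (1.81 ± 0.74; edgeR, adjusted p = 0.0481). For KIF5B and KIF21A the counting intervals of the ratio lay on opposite sides of 1 in the 2 libraries. In the cattle-yak, KIF3B rested on 1 and 8 UMIs in spermatocytes and spermatogonia, with a ratio of 0.139 (0.00313 to 1.04), and KIF9 on 2 and 3 UMIs, from which no direction is read. Within the cattle-yak, 6 of 16 kinesins were at least 2-fold higher in spermatocytes than in spermatogonia and 0 at least 2-fold lower, where 23.9% and 24.3% of all genes were. KIF3B and KIF9 were no longer called without the macrophage sums of the shared fit, under DESeq2, with no filter on low counts or with library totals. Without replicate 1 or 4, KIF3B, KIF9 and KIF21A were lost, without replicate 2 KIF3B and KIF9, and without replicate 3 KIF3B and KIF21A. With library totals in place of TMM normalisation, the median of all genes moved by -0.45, and 4 members were called higher and 3 lower.

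**Figure D3:**
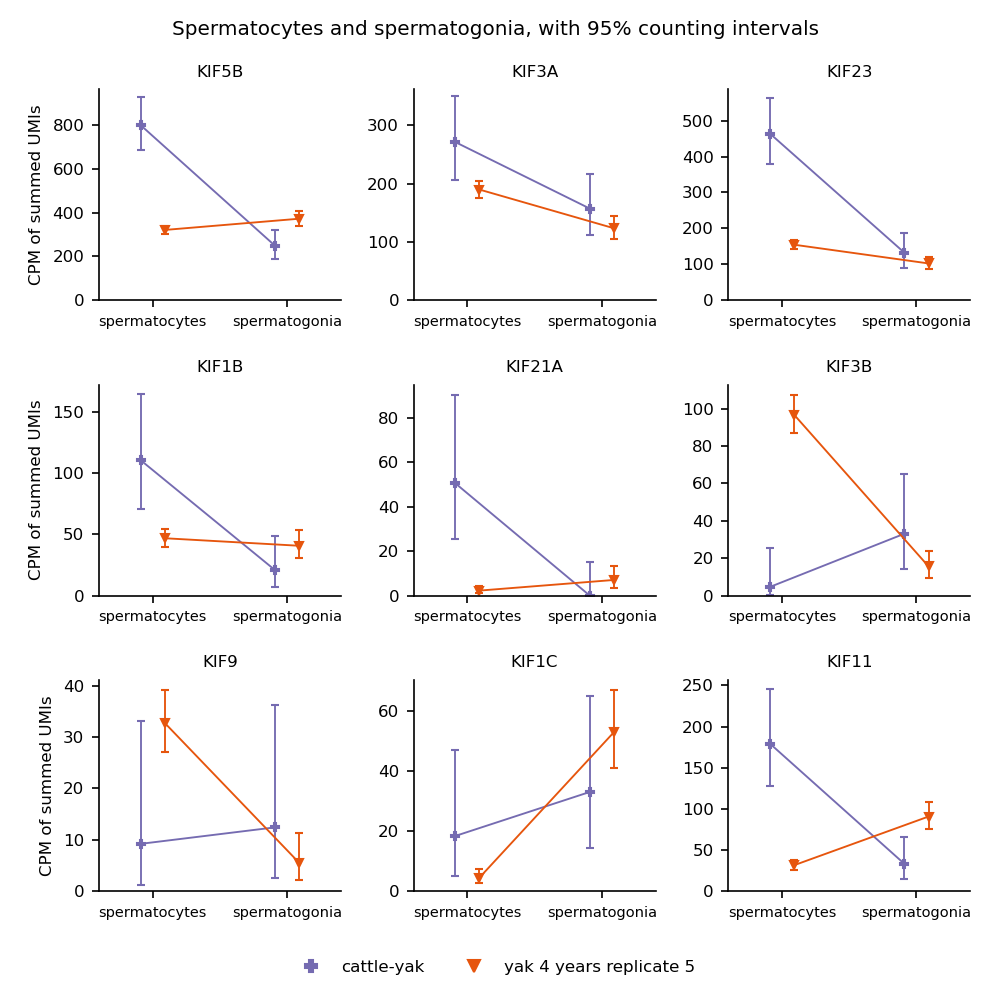
Level of 9 kinesins in gated spermatocytes and spermatogonia of the cattle-yak and the 4 year yak, in CPM of summed UMIs with exact 95% Poisson intervals as bars. KIF3A, KIF23 and KIF1B lie higher in spermatocytes in both libraries, while KIF5B, KIF21A and KIF11 do so in the cattle-yak and not at 4 years.

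The cattle-yak and the 4 year yak are 1 library each, so their difference has no replicate check and the hybrid cannot be told apart from the library. Over all kept cells, the level of 26 of 31 kinesins was lower in the cattle-yak by its counting interval and that of 3 was higher. The share of all genes by such an interval was not counted, so no excess is read from these counts. At least 2-fold lower were 23 of 31, and at least 2-fold higher 1, where 33.9% and 17.6% of all genes were. The median ratio was 0.337 over the kinesins and 0.815 over all genes. KIF17 had 1.54 CPM in the cattle-yak and 189 CPM at 4 years, KIF5C 3.98 CPM and 379 CPM, and KIF2C 4.75 CPM and 63.4 CPM. In such whole-library sums, fewer cells of a type and less RNA per cell cannot be told apart, and the cattle-yak had 0 gated spermatids against 477 at 4 years. KIF21A was the member at least 2-fold higher, with 8.60 CPM in the cattle-yak and 2.60 CPM at 4 years.

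Matched gates of the cattle-yak and the 4 year yak were also compared. The cattle-yak had 34 spermatogonia and 30 spermatocytes, which limits what the counting intervals can show. In spermatogonia, 3 of 23 kinesins were at least 2-fold higher in the cattle-yak and 2 at least 2-fold lower, where 8.24% and 16% of all genes were. The interval of the ratio lay below 1 for KIF11 (0.365, 0.154 to 0.744) and KIF5B (0.667, 0.501 to 0.873) and above 1 for KIF18A (1.87, 1.03 to 3.26). In early spermatocytes, 4 of 19 kinesins were at least 2-fold higher in the cattle-yak and 3 at least 2-fold lower, where 16.3% and 22.5% of all genes were. KIF23 had 462 CPM in early spermatocytes of the cattle-yak and 148 CPM in those of 4 years (ratio 3.13, 2.37 to 4.13). KIF11 had 182 CPM in early spermatocytes of the cattle-yak and 65.0 CPM in those of 4 years (2.80, 1.80 to 4.32). Both motors of division were thus higher in the cattle-yak by their counting intervals, as were KIF14, KIF15, KIF5B and KIF21A. Here and in spermatogonia, the share of all genes by interval was not counted. KIF17 had 1 UMI in early spermatocytes of the cattle-yak and 51 UMIs at 4 years (0.0732, 0.00182 to 0.427), and KIF3B 1 UMI and 37 UMIs (0.101, 0.00249 to 0.598). Somatic cells of the 4 year library, the one with spermatids, had 47.6 CPM of KIF17 beside 63.8 CPM in its early spermatocytes, and the part of such background in the KIF17 ratio was not tested. Over whole spermatocyte gates, 12 of 26 kinesins were at least 2-fold higher in the cattle-yak and 7 at least 2-fold lower, where 34.0% and 33.0% of all genes were, with the makeup of the gates given above. The 28 and 154 early spermatocytes need not be at the same step of meiosis, which was not tested.

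The somatic cell classes were compared for each kinesin. An F test over the gates Sertoli, stroma, endothelium, mural, lymphocyte and macrophage, in the same fit, called 10 of 24 kinesins, where 67.4% of all genes were called. By role, 6 of 7 tested kinesins of transport, 3 of 7 of cilia and 1 of 10 of division (KIF22) were called, and the share of transport kinesins is near that of all genes. The genes were KIF21A, KIF5B, KIF1C, KIF13A, KIF1B, KIF3A, KIF5C, KIF22, KIF9 and KIF27, with edgeR adjusted p-values from 3.14e-15 for KIF21A to 0.0197 for KIF27. KIF27 was not called without replicate 2, replicate 3 or the cattle-yak, and KIF9 was not called without replicate 3. Both were also lost with the stricter cell filter. Each class was then set against the mean of the other classes.

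KIF21A (ENSBGRG00000012509) marked the cells gated as Sertoli, which nurse the germ cells. It had 21.8, 19.2, 134, 94.6 and 135 CPM in the 5 Sertoli sums (both 6 month libraries, both 18 month libraries and the cattle-yak) and at most 15.3 CPM in any sum of another somatic class. The ranges did not overlap, and Sertoli lay above every other class in 5 of 5 libraries. The difference was 6.09 ± 0.45 (edgeR, adjusted p = 1.14e-14), and 5.30 ± 0.34 without the 2 macrophage sums, where KIF21A had 0 UMIs. KIF9, KIF5C, KIF22 and KIF1B were also higher in Sertoli, and KIF1C and KIF14 lower, where 23.1% and 14.0% of all genes were. KIF9 was higher by 3.26 ± 0.73 (2.25 ± 0.46 without macrophages), KIF5C by 2.68 ± 0.62, KIF22 by 1.24 ± 0.34 and KIF1B by 0.81 ± 0.31. KIF5C had 12.4, 10.5, 10.8, 7.87 and 0 CPM in the 5 Sertoli sums, and at most 7.77 CPM in stroma, endothelium, mural cells and lymphocytes outside the 4 year library. KIF14 was lower by 2.55 in Sertoli, and by 2.02 without the macrophage sums, where it was not called (edgeR, adjusted p = 0.0582).

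Endothelium, the lining of vessels, had the highest KIF5B of the somatic classes in 6 of 6 libraries. KIF5B had 189, 215 and 263 CPM in endothelium (lowest, median and highest of 6 libraries), against 85.5 to 144 CPM in mural cells, 37.4 to 78.9 CPM in lymphocytes, 33.1 to 73.1 CPM in Sertoli, 25.4 to 138 CPM in stroma and 68.0 and 160.4 CPM in the 2 macrophage sums. The ranges did not overlap, and the difference was 1.44 ± 0.19 (edgeR, adjusted p = 8.04e-08). KIF1C had 51.9, 65.7 and 84.1 CPM in endothelium and 28.5, 49.96 and 78.2 CPM in mural cells. It had at most 40.8 CPM in stroma, 16.1 CPM in Sertoli and 12.5 CPM in lymphocytes, and 40.1 and 68.0 CPM (6 UMIs) in the macrophage sums. It was higher by 1.16 ± 0.23 in endothelium (edgeR, adjusted p = 0.000109) and by 1.08 ± 0.22 in mural cells (edgeR, adjusted p = 0.00029), and lower by 1.60 in lymphocytes (edgeR, adjusted p = 1.36e-05). KIF13A had 12.8, 17.2 and 43.9 CPM in endothelium and was highest there in 5 of 6 libraries (2.99 ± 0.63; 1.87 ± 0.37 without macrophages). KIF22 was lower by 1.32 in endothelium (edgeR, adjusted p = 0.042). In endothelium, 14.6% of all genes were called higher and 6.40% lower.

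Stroma had the highest level among the somatic classes in 4 of 6 libraries for the ciliary kinesins KIF3A, KIF27 and KIF3B, the last of which was not called. KIF3A had 38.9, 44.5 and 84.4 CPM in stroma and was higher by 2.50 ± 0.48 than the mean of the other classes, or by 0.77 ± 0.21 without the macrophage sums, where it had 0 UMIs. KIF27 had 21.6, 55.5 and 107 CPM in stroma (0.95 ± 0.30). The 107 CPM came from the 47 stromal cells of the 4 year library, which gave 46 kinesin UMIs in all. The part of free RNA from germ cells in that level was not tested. KIF5B was lower there by 1.34 (edgeR, adjusted p = 1.77e-05). In stroma, 18.3% of all genes were called higher and 7.6% lower. The mural calls for KIF3A and KIF13A (2.12 ± 0.56 and 2.23 ± 0.75) were lost without the macrophage sums (edgeR, adjusted p = 0.387 and 0.0552), and KIF5B was higher in mural cells by 0.63 ± 0.20, where 14.4% and 2.1% of all genes were called higher and lower. Without the macrophage sums, KIF21A was also called lower in endothelium (-3.22 ± 0.82) and mural cells (-2.16 ± 0.72), KIF13A lower in Sertoli (-1.35 ± 0.49) and lymphocytes (-2.14 ± 0.51), and KIF19 higher in stroma. Without those sums, 4 division kinesins were called higher in lymphocytes, KIF23 (1.19 ± 0.41), KIF18A (1.17 ± 0.42), KIF18B (1.73 ± 0.62) and KIF14 (1.47 ± 0.60), where 2125 of 9772 genes were called higher and 1910 lower. In lymphocytes, KIF1B was also lower, by 1.68 (edgeR, adjusted p = 0.001), where 10.1% of all genes were and 19.3% were higher. In macrophages, KIF3A was called lower with 0 UMIs in both sums, where 3.7% and 2.52% of all genes were called higher and lower. KIF21B had too few UMIs for the test. Its 69 UMIs in lymphocytes gave 1.62 to 19.01 CPM, above every other somatic class in 6 of 6 libraries, against at most 3.72 CPM elsewhere.

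**Figure D4:**
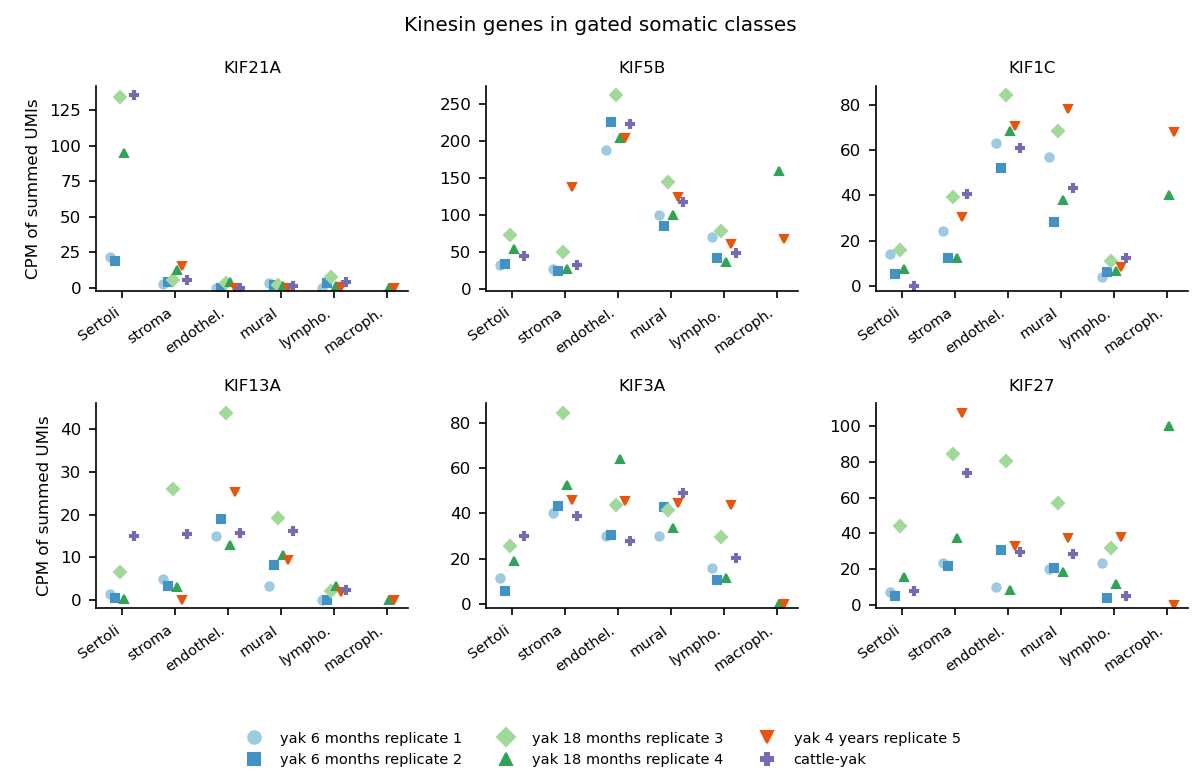
Level of 6 kinesins in gated somatic classes, in CPM of summed UMIs, with 1 point per library of at least 20 cells. KIF21A is highest in Sertoli, KIF5B in endothelium, and KIF1C in endothelium and mural cells.

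Division kinesins separated cycling somatic cells from the rest. The comparison took the sums of gated somatic cells that pass the cycling gate against those that do not, in the 3 libraries with at least 20 cycling cells (29 and 50 cells at 6 months and 25 in replicate 3 of 18 months). Of 17 kinesins tested, 10 were higher in cycling cells and 0 lower, where 4.84% and 4.98% of all genes were, 9.82% in all. These were 9 of 9 tested kinesins of division, 0 of 3 of cilia and 1 of 5 of transport. KIF18B and KIF2B, also of division, had too few UMIs. Members near 0 in the other cells could pass the filter on low counts through cycling cells alone, and these counts depend in part on that. The median log2 fold change was 2.84 over the 17 kinesins and -0.14 over all genes. The p-values below rest mostly on a spread shared across genes, since 3 libraries give little for each gene alone.

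KIF23 had 92.1, 87.8 and 212 CPM in cycling cells against 2.48, 4.25 and 4.38 CPM in the other somatic cells (4.88 ± 0.35; edgeR, adjusted p = 2.66e-40). KIF11 had 74.8, 45.4 and 102 CPM in cycling cells against 0.354, 0 and 2.41 CPM in the other somatic cells (6.41 ± 0.48; edgeR, adjusted p = 1.58e-37). KIF22 had 109, 103 and 177 CPM in cycling cells against 24.8, 16.7 and 8.77 CPM in the other somatic cells (2.84 ± 0.29; edgeR, adjusted p = 8.29e-20). The groups did not overlap for any of the 9 division kinesins, which were higher in 3 of 3 libraries. The share of all genes without such overlap was not counted. KIF4A rose by 5.48 ± 0.60, KIF15 by 4.14 ± 0.47 and KIF2C by 5.79 ± 0.79 in cycling cells (edgeR, adjusted p = 8.95e-18, 1.36e-16 and 1.29e-11). KIF18A rose by 3.83 ± 0.59, KIF14 by 5.32 ± 0.91 and KIF20A by 4.23 ± 0.80 (edgeR, adjusted p = 3.51e-09, 2.06e-07 and 3.76e-06). KIF21A was the transport kinesin called (1.20 ± 0.41; edgeR, adjusted p = 0.0393), with 0, 24.2 and 97.4 CPM in cycling cells against 12.9, 7.6 and 27.2 CPM in the other somatic cells. It was higher in 2 of 3 libraries, and Sertoli cells were 11 of 29, 30 of 50 and 4 of 25 cycling cells, and 925 of 3088, 595 of 2408 and 96 of 1526 of all gated somatic cells. Their part in the result was not tested. Without replicate 3 of 18 months, 6 members were called, and KIF14, KIF20A, KIF21A and KIF2C were not. The same 4 were lost with the stricter cell filter. Without replicate 1 KIF14 was lost, and without replicate 2 KIF14 and KIF21A.

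**Figure D5:**
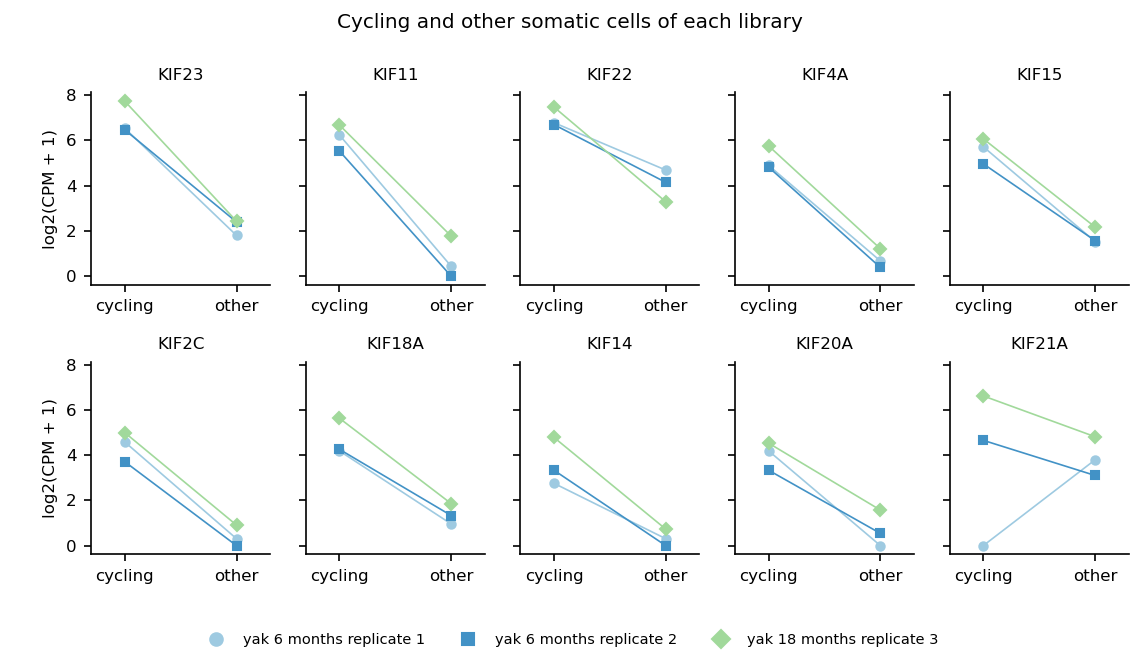
Level of 10 kinesins in cycling (left) and other (right) gated somatic cells of 3 libraries, as log2(CPM + 1), with 1 line per library. The 9 division kinesins fall to the right in every library, and KIF21A rises to the right in replicate 1 of 6 months.

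Age was compared between 18 and 6 months, the groups with 2 libraries each. Over whole libraries, 1 of 29 kinesins was called, higher at 18 months, where 2.58% of all genes were called, 1.86% higher and 0.716% lower. KIF15 had 57.2 and 21.9 CPM at 18 months against 2.68 and 3.37 CPM at 6 months (2.56 ± 0.39; edgeR, adjusted p = 0.0374). The groups did not overlap. Without replicate 1, 2 or 3 the count was 0, and without replicate 4 it was 8. KIF14 had 29.3 and 5.46 CPM at 18 months against 0.656 and 0.512 CPM at 6 months (3.62 ± 0.68; edgeR, adjusted p = 0.0508). KIF5A, a conventional kinesin heavy chain of neurons, had 5.43 and 1.33 CPM at 18 months against 0.179 and 0.0732 CPM at 6 months (3.44 ± 0.81; edgeR, adjusted p = 0.075). Those 2 genes also did not overlap between the ages, but missed the threshold. With 2 libraries at each age, a lack of overlap is a weak sign, here and within the classes below. Its share over all genes was not counted. KIF18B, KIF1A and KIF11 had log2 fold changes of 2.45 ± 0.68, 2.30 ± 0.62 and 1.91 ± 0.50 (edgeR, adjusted p = 0.103, 0.0976 and 0.0918). At an unadjusted p below 0.05 there were 13 of 29 kinesins and 3118 of 13553 genes. DESeq2 called 7 kinesins and 1361 genes. With library totals in place of TMM, edgeR called 17 kinesins and 3052 genes, and the median of all genes moved by 1.07. Gated spermatogonia were 9.13% and 6.89% of kept cells at 18 months against 0.419% and 0.370% at 6 months, and their part in the whole-library result was not tested.

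Within spermatogonia, 0 of 23 kinesins were called between the ages, where 0.91% of all genes were, 0.49% higher and 0.42% lower. Here 6 passed an unadjusted p below 0.05, as did 1417 of 8571 genes, and DESeq2 called 0 kinesins and 57 genes. KIF15 had 117 and 102 CPM in spermatogonia of 18 months against 34.6 and 38.8 CPM in those of 6 months (1.45 ± 0.58; edgeR, adjusted p = 0.183). KIF19 had 24.9 and 22.2 CPM in spermatogonia of 18 months against 39.5 and 97.0 CPM in those of 6 months (-1.54 ± 0.59; edgeR, adjusted p = 0.162). The ages did not overlap for either gene, and neither passed the test. KIF1B, KIF24, KIF20A and KIF23 had log2 fold changes of 3.08 ± 1.16, 2.25 ± 1.28, 1.97 ± 1.33 and 1.42 ± 0.69, from 1, 1, 1 and 6 UMIs at 6 months. The 31 and 21 spermatogonia of 6 months gave 166 and 82 kinesin UMIs in all.

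In stroma, 0 of 7 kinesins were called between the ages, where 1.14% of all genes were, 0.961% higher and 0.179% lower. An unadjusted p below 0.05 was reached by 2 kinesins and 1289 of 7808 genes, and DESeq2 called 0 kinesins and 53 genes. KIF1B had 41.0 and 24.8 CPM in stroma of 18 months against 10.6 and 8.14 CPM in that of 6 months (1.46 ± 0.41; edgeR, adjusted p = 0.15), and KIF27 had 84.4 and 37.1 CPM against 23.5 and 21.5 CPM (1.09 ± 0.37; edgeR, adjusted p = 0.211). Without replicate 4, KIF13A, KIF1B and KIF27 were called higher at 18 months. Other stromal log2 fold changes were -0.64 for KIF22, 0.36 for KIF3A, 0.23 for KIF1C and 0.22 for KIF5B, and none passed the test.

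In Sertoli, 0 of 13 kinesins were called between the ages, where 0.32% of all genes were, 0.115% higher and 0.205% lower. An unadjusted p below 0.05 was reached by 6 kinesins and 1251 of 7813 genes, and DESeq2 called 190 genes in all. KIF21A had 134 and 94.6 CPM in Sertoli of 18 months against 21.8 and 19.2 CPM in those of 6 months (1.72 ± 0.43; edgeR, adjusted p = 0.109). KIF22 had 12.9 and 15.9 CPM in Sertoli of 18 months against 30.7 and 29.2 CPM in those of 6 months (-1.72 ± 0.45; edgeR, adjusted p = 0.113). Neither gene overlapped between the ages. DESeq2 called both, as did edgeR without replicate 3, and without replicate 4 it called KIF21A, KIF22, KIF27 and KIF9. KIF19, KIF9, KIF27 and KIF5C had log2 fold changes of 2.61 ± 0.94, 1.70 ± 0.70, 1.42 ± 0.55 and -1.08 ± 0.47, which missed the threshold.

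The age difference was also compared across spermatogonia, stroma and Sertoli by an interaction of age and class in edgeR, which called 2 of 23 kinesins, where 7.09% of all genes were called. These were KIF22 and KIF23, both motors of division, and neither was called without replicate 2.

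Related genes were counted beside the kinesins, from lists chosen with earlier results of these data known. Of all genes, 36.7% were higher and 20.6% lower in spermatogonia than in somatic cells. In spermatocytes against spermatogonia, 18.3% were higher and 19.9% lower, and in cycling somatic cells 4.84% and 4.98%. Between the ages, 2.58% of all genes were called over whole libraries and 0.91% in spermatogonia. In spermatogonia against somatic cells, 10 of 10 tested spindle and midzone partners were higher, among them PRC1, the bundler that KIF4A binds (3.35 ± 0.34), RACGAP1, the partner of KIF23 (4.35 ± 0.47), and SGO1, a guardian of sister chromatids (3.87 ± 0.30). Of 16 intraflagellar transport genes, the cargo trains that KIF3A and KIF3B pull, 9 were higher and 2 lower in spermatogonia. Of 9 kinesin relatives and adaptors, CENPE, MAPK8IP1, KIFC1 and KIFAP3, the third subunit of the KIF3A and KIF3B motor, were higher (3.63, 3.18, 2.94 and 1.03), and the minus-end directed KIFC2 and KIFC3 were lower (-1.25 and -0.87). In spermatocytes against spermatogonia, 10 of 16 intraflagellar transport genes were higher and 0 lower, among them HSPB11 (2.82 ± 0.39), IFT80 (2.57 ± 0.42) and IFT20 (2.21 ± 0.33). Of the spindle list, 2 of 10 were higher there (NUF2 2.50 and PRC1 1.84), and KIFC2 was the relative called higher (1.81 ± 0.52). In cycling against other somatic cells, 9 of 9 spindle genes were higher, as were KIFC1 (4.85 ± 0.40) and CENPE (5.27 ± 0.44), and 0 of 16 intraflagellar transport genes were called. Among somatic classes, 13 of 16 intraflagellar transport genes, 7 of 9 relatives and 2 of 10 spindle genes were called, where 67.4% of all genes were. Between 18 and 6 months, CENPE, the centromere motor, was higher over whole libraries (2.31 ± 0.42; edgeR, adjusted p = 0.0483), and MAPK8IP1, an adaptor of KIF5, was lower in spermatogonia (-2.05 ± 0.53; edgeR, adjusted p = 0.0293). No gene of the lists was called between the ages in stroma or Sertoli.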

How the data were processed

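The deposited files hold, per library, a sparse matrix of UMI counts per gene and barcode. The authors made these counts with Cell Ranger. Its version is 5.0.0 per the file headers, while the submitters' processing notes name 2.1.1. No genome build is named by the labels or headers. The lowest barcode total was 500 UMIs. The members and lists were chosen with earlier results of these data known.

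Cells were kept from 300 genes upward with mitochondrial UMIs (37 features) up to 20%, after Scrublet scores (scanpy 1.11.5, expected rate 0.06) had removed the highest-ranked 0.8% of barcodes per 1000 barcodes. A cell entered a gate with at least 3 UMIs from at least 2 markers of a type and at least 2 times those of every other type. The cycling gate asked for a UMI of at least 2 of 8 cell cycle genes. Deep cells pass such gates more easily: spermatogonia had a median of 2592 to 11711 UMIs per library, and cycling somatic cells 3561, 4439 and 5229 UMIs against 1944, 2355 and 2087 UMIs in the other somatic cells of the same libraries. Libraries shared 5 to 16 barcodes, and the libraries of an age differed by more than sampling noise (chi-square per degree of freedom 57.1 at 6 months and 219.1 at 18 months), so each counted as 1 sample.

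Counts were summed per library and gate where at least 20 cells were present and given as CPM of the gate's total. Sums were tested with edgeR 4.0.16 (R 4.3.3; quasi-likelihood test, TMM, filterByExpr), with Benjamini-Hochberg adjustment over all genes tested and calls at 0.05, and DESeq2 1.42.0 was an alternative. Tests between cell types kept the library as a block. Overlap of levels between groups was checked for kinesins alone, so no share over all genes stands beside it. All tests were two-sided, and the scripts were tested on simulated data. Ratios between single libraries used genes with at least 10 UMIs and exact 95% intervals, which cover counting error only. These intervals were formed for kinesins alone, so no share over all genes stands beside them. By a fixed rule the text gives values for each kinesin called (for over 12 calls, the 12 of smallest p), for the largest log2 fold changes up to 6 where fewer than 6 were called, for up to 6 kinesins with at least 10 UMIs that stood highest against the other gates at 4 years, and for called genes of the related lists. Other values were chosen after they were seen. Alternatives were a stricter cell filter (at least 500 genes, at most 10% mitochondrial UMIs), a looser one (at most 40%), doublets kept, looser and stricter gates (2 UMIs; 5 UMIs from 3 markers), library totals in place of TMM, no filter on low counts, no library block and each library left out. The gene sequences are not shown, since no sequence table was used here.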

Additional observations from a re-analysis of the deposited data

Results flagged for a closer look

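Both results of this kind between the ages come from a test of the age difference across spermatogonia, stroma and Sertoli (an interaction of age and class in edgeR), which called 2 of 23 kinesins, where 7.09% of all genes were called. KIF22 differed between the classes (edgeR, adjusted p = 0.000802). It had 106 and 138 CPM in spermatogonia of 18 months against 104 and 77.6 CPM in those of 6 months, but 12.9 and 15.9 CPM in Sertoli of 18 months against 30.7 and 29.2 CPM in those of 6 months. KIF23 also differed (edgeR, adjusted p = 0.0148). It had 59.5 and 56.4 CPM in spermatogonia of 18 months against 19.8 and 19.4 CPM in those of 6 months, and 4.18 and 0 CPM in stroma of 18 months against 5.96 and 11.0 CPM in that of 6 months. The KIF23 levels in spermatogonia of 6 months and in stroma of 18 months rest on at most a few UMIs per library. The near-equal values of 6 months are thus no sign of precision. Without replicate 2 neither was called, and KIF22 was not called with library totals.

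In spermatocytes over spermatogonia, the 95% counting intervals of the ratio lay on opposite sides of 1 in the cattle-yak and at 4 years for 3 kinesins. The ratio of KIF11 was 5.42 in the cattle-yak and 0.346 at 4 years. The ratio of KIF5B was 3.22 in the cattle-yak and 0.862 at 4 years. For KIF21A the ratio in the cattle-yak was 4.07, taking 3 counts in its spermatogonia as a floor. That value leaves out the counting error of the spermatocytes. At 4 years the ratio of KIF21A was 0.319, from 8 UMIs in spermatocytes and 9 UMIs in spermatogonia. These differences between the 2 libraries were not tested, since each has 1 sum per stage. The share of all genes with such opposite intervals was not counted. The spermatocyte gates of the 2 libraries also differed in makeup, as given above, and its part was not tested.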

How the results depend on the processing

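The number of kinesins called ran over the alternatives from 16 to 22 for spermatogonia against somatic cells (18 as reported), 6 to 8 for spermatocytes against spermatogonia (8), 8 to 14 among somatic classes (10) and 6 to 11 for cycling against other somatic cells (10). For the ages in whole libraries, 1 call became 17 with library totals, 10 with no filter on low counts, 7 under DESeq2, 2 with the stricter cell filter, 2 with doublets kept, and 0 to 8 when leaving out 1 library. Within stroma 0 calls became 0 to 3 when leaving out 1 library. Within Sertoli 0 calls became 1 with library totals, 2 under DESeq2 and 0 to 4 when leaving out 1 library. Within spermatogonia the count was 0 under every alternative run. For cycling somatic cells the count was 6 with the stricter cell filter and 6 to 9 when leaving out 1 library. The interaction of age and class, 2 as reported, gave 4 with no filter on low counts, 4 with the looser cell filter and 0 to 2 when leaving out 1 library. The cause of these shifts was not tested. Calls over all genes moved too. For the ages in whole libraries they went from 349 to 3052 with library totals, 2205 with no filter on low counts and 1361 under DESeq2.

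Of 828 values of named genes under alternatives, 743 kept their direction and side of the threshold, 48 lost and 32 gained a call, and 5 turned round, all of them uncalled age differences in stroma. When leaving out 1 library, the log2 difference of KIF22 ran from -1.13 to 0.0005431 (without replicate 3), that of KIF1C from -0.72 (without replicate 3; -0.16 without replicate 2) to 0.67, and that of KIF5B from -0.068 (without replicate 3) to 0.21. With the stricter cell filter KIF1C was at -0.11.

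No paired analysis was possible because the 6 month and 18 month libraries share no replicate number. In tests between cell types of the same libraries, leaving out the replicate block gave 16 calls for spermatogonia against somatic cells, 8 for spermatocytes against spermatogonia, 10 among somatic classes and 9 for cycling cells. The interaction of age and class, the somatic cells as 1 sum per library and the fits without macrophage sums were chosen after seeing the data. Library totals moved the median log2 fold change of all genes by 0.15 (spermatogonia), 0.43 (stroma) and 0.73 (Sertoli) between the ages, by 0.68 for spermatogonia against somatic cells and by 0.15 for cycling cells. Not run, for too few cells or libraries, were the stricter cell filter for Sertoli ages and spermatocytes, the stricter gate for spermatogonia ages and cycling cells, and spermatocytes without either of their libraries. Depth limits the low kinesins, since 7 members could not be tested among spermatogonia, spermatocytes and somatic classes, and 14 in cycling against other somatic cells. Between the ages, 8 could not be tested in spermatogonia, 24 in stroma and 18 in Sertoli.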
